A study of Mus musculus with 4 samples.

Results

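Genomic imprinting was followed through 9 genes of 4 mouse domains: Igf2r with its antisense RNA Airn, the Dlk1 to Dio3 domain with the noncoding RNAs Meg3, Rian and Mirg, Grb10, and Plagl1. The genes were taken by name, with no threshold on their values. Of the 9 genes, 6 have a row in the expression table used here, which holds 9997 symbols: Igf2r, Airn, Dlk1, Meg3, Dio3 and Grb10. Rian, Mirg and Plagl1 were not analysed here. All 6 reached 1 FPKM (fragments of a transcript divided by its length and by the size of the library) in at least 1 library, as did 5885 symbols in all.

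The RNA came from embryoid bodies, floating aggregates in which stem cells start to differentiate, made from the mouse line ES-E14TG2a. A single library stood for each of 4 groups: control embryoid bodies without an ATRA label, and ATRA embryoid bodies at 0, 6 and 10 days. ATRA is all-trans retinoic acid, a vitamin A derivative that activates nuclear receptors. The dose was 5 µM, added on day 4 and again on day 6 of embryoid body culture, and the aggregates were later plated on poly-ornithine and laminin. The day labels follow a 4-day ATRA treatment in the series design. No source used here gives the culture age of the control, so ATRA treatment and culture age cannot be told apart in any comparison with it. With 1 library per group there is no replicate check and no test, and every value describes these libraries.

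Imprinted genes are transcribed mainly from 1 parental copy, under methylation marks set in the egg or the sperm and kept after fertilisation. Most lie in clusters where a long noncoding RNA is read from the opposite parental copy to the protein-coding genes. Airn, read from the paternal copy, silences the paternal Igf2r in mouse, while Dlk1 is paternally and Meg3 maternally expressed from a shared methylation-controlled region. Many of these genes set the growth of the embryo and placenta. The values sum both parental copies, so allelic expression was not measured.

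Depth was not counted but estimated from low values of FPKM times transcript length (kb) between 0.02 and 0.05. That fixed window bounds the estimate, which lay between 24500000 fragments in the control and 27300000 at 10 days. The summed FPKM of 8 markers of pluripotent cells was 2596, 222, 314.0 and 309 across the control and the libraries of 0, 6 and 10 days. That of 7 endoderm markers was 163, 320.0, 2423 and 3544, most of it from Sparc alone (133, 259, 1862 and 2711 FPKM). Neuronal markers (5 genes) summed to 7.77, 9.41, 69.4 and 33.7 FPKM in the same order, and 4 neural progenitor markers to 1.21, 32.8, 53.4 and 24.6 FPKM. In the neuronal sum Nefl alone was at 2.88, 2.58, 39.6 and 21.8 FPKM. The higher progenitor sum at 6 than at 0 days came from Fabp7 (35.9 against 1.13 FPKM), while Dach1 was lower (4.59 against 15.1 FPKM). Markers of mesenchyme and muscle (6 genes) summed to 1.89, 4.21, 96.1 and 338 FPKM, of which Tnnc1 alone was at 1.54, 2.05, 45.7 and 217 FPKM. Those of trophoblast (7 genes) summed to 0.373, 0.0805, 51.2 and 129 FPKM. These are the listed markers that have a row, 8 of 10 for pluripotent cells and 7 of 10 for endoderm. For neurons 5 of 8 had a row, and for neural progenitors 4 of 8. For mesenchyme and muscle 6 of 10 had a row, and for trophoblast 7 of 8. No marker in the table was at 0 in all 4 libraries. In bulk RNA a change in the number of cells of a type and a change in RNA per cell cannot be told apart, and the part these markers play in the results below was not tested.

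The start regions of the 2 pairs of neighbouring genes whose levels are described first are shown because each pair holds a protein-coding gene and a noncoding RNA. Each covers 250 bases before to 50 after the start, from RefSeq on GRCm38.p6 (mm10), on the strand of the gene. Capitals mark, on either strand, TGCCGC (the motif of ZFP57, which protects imprints), AGGTCA (the half-site of nuclear receptors, among them the retinoic acid receptors), TGACGTCA (the cAMP response element) and TATAAA (the TATA box). They are Igf2r at chr17:12769657-12769956, minus strand, Airn at chr17:12741061-12741360, Dlk1 at chr12:109452573-109452872 and Meg3 at chr12:109540746-109541045, the last 3 on the plus strand.
Igf2r: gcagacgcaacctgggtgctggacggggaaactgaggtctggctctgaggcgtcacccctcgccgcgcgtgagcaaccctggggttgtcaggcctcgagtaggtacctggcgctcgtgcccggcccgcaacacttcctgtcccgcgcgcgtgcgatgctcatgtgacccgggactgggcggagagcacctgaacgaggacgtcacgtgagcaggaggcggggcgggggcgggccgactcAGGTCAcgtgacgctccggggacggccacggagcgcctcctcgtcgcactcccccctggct
Airn: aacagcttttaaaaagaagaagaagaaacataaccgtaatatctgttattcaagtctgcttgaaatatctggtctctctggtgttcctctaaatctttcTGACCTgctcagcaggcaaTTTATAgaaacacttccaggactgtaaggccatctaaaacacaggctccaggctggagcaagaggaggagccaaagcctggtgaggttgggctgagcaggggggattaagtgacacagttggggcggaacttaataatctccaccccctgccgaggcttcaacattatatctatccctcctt
Dlk1: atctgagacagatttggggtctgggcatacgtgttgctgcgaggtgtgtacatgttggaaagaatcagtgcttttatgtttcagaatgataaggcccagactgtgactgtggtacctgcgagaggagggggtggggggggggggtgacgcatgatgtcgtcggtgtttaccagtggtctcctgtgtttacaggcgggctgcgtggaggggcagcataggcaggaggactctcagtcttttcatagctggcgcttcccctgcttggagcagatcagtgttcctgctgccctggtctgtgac
Meg3: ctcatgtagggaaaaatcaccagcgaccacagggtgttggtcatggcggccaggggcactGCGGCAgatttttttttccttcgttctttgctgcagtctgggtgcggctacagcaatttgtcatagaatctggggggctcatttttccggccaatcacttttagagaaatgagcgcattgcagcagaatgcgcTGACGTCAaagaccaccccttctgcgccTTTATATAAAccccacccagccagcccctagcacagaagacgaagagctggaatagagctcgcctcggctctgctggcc

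In these letters the Meg3 start held 1 TGCCGC, 1 TGACGTCA and 2 overlapping TATAAA matches. Those of Igf2r and Airn held 1 AGGTCA each, and Airn a TATAAA beside it. None of the 4 motifs was in the Dlk1 window. Over 32817 such windows of RefSeq genes, TGCCGC was in 11.6%, AGGTCA in 16.3%, TGACGTCA in 1.79% and TATAAA in 13.6%. A pair of half-sites (AGGTCA, any 5 bases, then AGGTCA, on either strand) was in 0.00914% and in none of the windows of the 9 genes. CpG pairs numbered 34 at Igf2r, 3 at Airn, 9 at Dlk1 and 13 at Meg3, where the median window had 7. A match is a description of letters and not a bound site.

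Igf2r and Airn were both lowest in the control and highest at 10 days, and each library stood above the one before. Igf2r encodes the cation-independent mannose 6-phosphate receptor, which carries lysosomal enzymes to lysosomes and removes the growth factor IGF2 (mm10 chr17:12682406-12769664, minus strand). Its level was 15.2 FPKM in the control, 25.4 FPKM at 0 days, 35.7 FPKM at 6 days and 39.7 FPKM at 10 days. On the log2(FPKM + 1) scale, which understates differences of low values, it was 0.70 higher at 0 days than in the control, 0.48 higher at 6 than at 0 days and 0.15 higher at 10 than at 6 days. No single step reached 2-fold. The 10-day level was 1.11 times the 6-day level. Its counting interval of 0.922 to 1.33 spans equality at the shortest annotated transcript, with 221 fragments at 6 days and 265 at 10 days. The longest transcript would give 8002 and 9628 fragments and a narrower interval, so this interval does not decide whether the levels differ. Under upper-quartile scaling the difference of 10 against 6 days was 0.02. Against the control, the difference was 1.18 at 6 days and 1.33 at 10 days, both past 2-fold. The 10-day level was 2.61 times the control level, with a 95% counting interval of 2.05 to 3.35. These intervals and those below are exact binomial and rest on the estimated depth. They use the shortest annotated transcript and so are wide, and cover counting error only.

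Airn (mm10 chr17:12741311-12860136, plus strand) starts in intron 2 of Igf2r, 28353 bases inside it, and runs across the Igf2r start. Its level was 0.0358 FPKM in the control, 9.52 FPKM at 0 days, 13.9 FPKM at 6 days and 26.3 FPKM at 10 days. The control therefore stood far below the 3 ATRA libraries, which rank by day. At the estimated depth the control value corresponds to 0.381 to 1.21 fragments over the annotated spliced lengths, so no fold is given against it. The log2(FPKM + 1) difference at 0 days was 3.34 and at 10 days 4.72. From 0 to 10 days the level differed 2.77-fold (interval 2.23 to 3.49). The ratio of Airn to Igf2r FPKM within a library, which a rescaling of whole libraries does not touch, was 0.00236 for the control library. For the ATRA libraries it was 0.375 at 0 days, 0.389 at 6 days and 0.663 at 10 days.

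The antisense layout limits these 2 rows. The spans of Igf2r and Airn overlap by 28354 bases on opposite strands, and no source used here says whether counting used strand. No annotated exon base of one lies in an exon of the other. Unspliced Airn RNA also crosses Igf2r, and reads of the 2 genes there could not be told apart without strand. The neighbours that Airn is known to silence in the placenta stayed below the 1 FPKM needed for comparison in every library. Slc22a3, an organic cation transporter, was at 0, 0.0102, 0.261 and 0.243 FPKM across the control and 0, 6 and 10 days. Slc22a2 was at 0.0204, 0, 0.0387 and 0.0547 FPKM in that order. An effect of Airn on them was not tested.

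**Figure D1:**
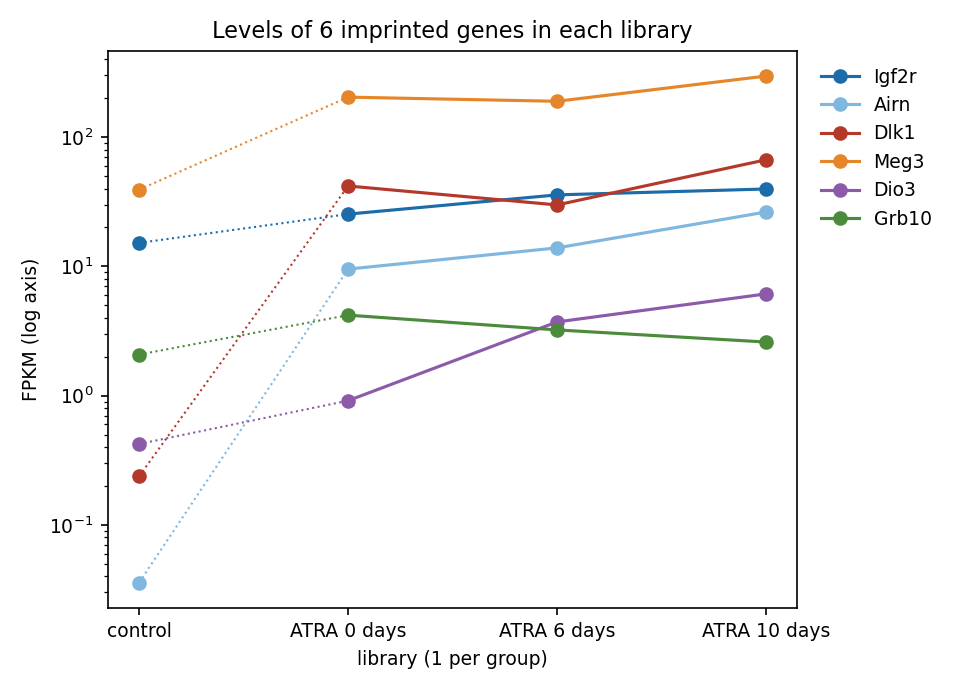
FPKM (log axis) of the 6 imprinted genes in each of the 4 libraries; solid lines join the ATRA libraries and dotted lines lead from the control. All 6 genes were lowest in the control, and Meg3 was the most abundant in every library, from 39.2 to 297 FPKM.

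Dlk1 and Meg3 shared the order of their libraries, with the control lowest, 6 days below 0 days and 10 days highest. Dlk1 encodes a membrane protein related to Notch ligands that holds progenitor cells from differentiating (mm10 chr12:109452823-109463336). It stood at 0.238 FPKM in the control, 41.9 FPKM at 0 days, 29.9 FPKM at 6 days and 66.8 FPKM at 10 days. Its log2(FPKM + 1) differences over the 3 steps were 5.11, -0.47 and 1.13, the first and last past 2-fold. At the estimated depth the control value corresponds to 2.81 to 27.1 fragments, and the 0-day level was 176 times it (interval 56.2 to 804). The 10-day level was 2.23 times the 6-day level (interval 1.97 to 2.53).

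Meg3, a noncoding RNA read 77.7 kb downstream of Dlk1 (mm10 chr12:109541001-109571726, plus strand), had a higher control level than Dlk1. It stood at 39.2 FPKM in the control, 204 FPKM at 0 days, 189 FPKM at 6 days and 297 FPKM at 10 days. Its log2(FPKM + 1) differences over the steps were 2.35, -0.11 and 0.65. The 0-day level was 5.20 times the control level (interval 4.67 to 5.79), and the 6-day level 0.929 times the 0-day level (interval 0.874 to 0.987). Its percentile rank among the tested genes was 97.3 at 0 days, against 80.3 in the control. Gm26906, a noncoding gene on the other strand, overlaps 1228 exonic bases of Meg3, where reads could not be told apart without strand. The ratio of Meg3 to Dlk1 FPKM was 165 in the control and 4.87, 6.34 and 4.44 in the 3 ATRA libraries by day. The control ratio rests on the few Dlk1 fragments given above and is imprecise for that reason.

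Dio3 closed the domain and had another time course. It encodes the deiodinase that inactivates thyroid hormone, and lies 828 kb from the Dlk1 start to its own end (mm10 chr12:110279068-110281097, plus strand). Its level was 0.422 FPKM in the control, 0.914 FPKM at 0 days, 3.71 FPKM at 6 days and 6.12 FPKM at 10 days. On the log2(FPKM + 1) scale the first step was 0.43, short of 2-fold, and the second was 1.30, where Dlk1 and Meg3 were slightly lower. The third was 0.59. In FPKM, which the pseudocount does not damp, the 0-day level was 2.16 times the control level (interval 1.15 to 4.27), and the 6-day level was 4.06 times the 0-day level (interval 2.79 to 6.08). The 7 endoderm and 6 mesenchyme and muscle markers above were all 2-fold or more higher in the step from 0 to 6 days. All 4 tested neuronal and 5 of 6 tested trophoblast markers were too. Of 4 neural progenitor markers 1 was higher and 1 lower, and of 8 pluripotent cell markers 2 were higher and 0 lower. Among all tested genes 8.22% were higher and 4.88% lower. The markers were chosen with earlier results of these data known, so their counts are no test against all genes. The part of the markers in the Dio3 difference was not tested. Dio3os, a noncoding RNA read away from Dio3 and starting 896 bases from it, was at 0.0961, 0.627, 2.65 and 5.10 FPKM in the same order of libraries. Their ratio (Dio3 over Dio3os) was 4.39 in the control and 1.46, 1.40 and 1.20 in the ATRA libraries. The control ratio rests on the low Dio3os value of 0.0961 FPKM and is imprecise for that reason. Rtl1, a retrotransposon-derived gene of the domain needed in the placenta, stayed between 0.146 and 0.353 FPKM. The RNA 6430411K18Rik, annotated inside the span of Rtl1, had its highest value, 1.12 FPKM, at 0 days, against a control value of 0.240 FPKM.

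Small RNAs of the domain lie inside Meg3, Rian and Mirg or between them. Of 57 table rows for small RNAs between Dlk1 and Dio3, 55 were listed at 0 in all 4 libraries. The 2 others were AF357359, a small nucleolar RNA inside the annotated span of Rian, and Mir134, inside that of Mirg. AF357359 was at 31.4 FPKM in the control, 95.9 FPKM at 0 days, 119 FPKM at 6 days and 115 FPKM at 10 days. Mir134 was at 4.93, 11.9, 24.1 and 42.5 FPKM in that order. Both were lowest in the control, as the 6 genes were. They are annotated at 30 and 71 nt, shorter than typical fragments, so their FPKM is unstable. Reads of longer RNA across them cannot be told apart from theirs, and the values measure neither the mature miRNA nor Rian or Mirg. The mature products of Mir134 are shown from RefSeq, as the 1 miRNA of the domain above 0, with the seed (bases 2 to 8) in capitals; they are on chr12, plus strand.
mmu-miR-134-5p: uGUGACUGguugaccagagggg
mmu-miR-134-3p: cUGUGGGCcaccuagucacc

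Grb10 differed least of the 6. It encodes an adaptor that binds the insulin and IGF1 receptors and restrains growth (mm10 chr11:11930508-12038683, minus strand). In most tissues of the mouse it is read from the maternal copy, and in neurons from the paternal copy through other promoters. Its level was 2.08 FPKM in the control, 4.19 FPKM at 0 days, 3.22 FPKM at 6 days and 2.60 FPKM at 10 days, the only one of the 6 genes with its highest value at 0 days. On the log2(FPKM + 1) scale the steps were 0.75, -0.30 and -0.23, all short of 2-fold. The 0-day level was 2.02 times the control level (interval 1.12 to 3.73). The 10-day level was 1.25 times the control level. Its interval of 0.653 to 2.43 spans equality at the shortest annotated transcript, with 18 fragments in the control and 25 at 10 days. The longest transcript would give 258 and 359 fragments and a narrower interval, so this interval does not decide whether the levels differ. The row sums the transcripts, so promoter use was not measured.

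Plagl1 encodes a zinc finger protein that slows growth and regulates other imprinted genes. It has no row here, but Hymai, an imprinted noncoding RNA whose RefSeq start lies 13 bases from that of Plagl1 (mm10 chromosome 10, 13090845 to 13095900), does. Hymai was at 0.215 FPKM in the control, 6.73 FPKM at 0 days, 17.1 FPKM at 6 days and 16.2 FPKM at 10 days. Its log2(FPKM + 1) differences over the steps were 2.67, 1.22 and -0.07. The 2 genes share their start region, so reads there may belong to either, and the row is not a measure of Plagl1.

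Counted on the log2(FPKM + 1) scale, as in all counts below, 3 of the 6 genes were 2-fold or more higher at 0 days than in the control (Airn, Dlk1 and Meg3) and none lower. Among all 5885 tested genes 12.2% were higher and 12.8% lower in that comparison. Dio3 and Grb10, at 2.16 and 2.02 times the control in FPKM, fell short of 2-fold on that scale. The 8 pluripotent cell markers, chosen with earlier results of these data known, were all lower in this comparison. Their part in the 3 differences was not tested. At 6 against 0 days, Dio3 was the 1 gene higher, where 8.22% of all genes were higher and 4.88% lower. At 10 against 6 days Dlk1 was the 1 higher, against 3.7% of all genes higher and 0.85% lower. Airn and Dio3 were higher at 10 than at 0 days, where 14.4% of all genes were higher and 7.6% lower.

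Against the control, 5 of the 6 genes (all but Grb10) were higher at 6 days, where 15.3% of all genes were higher and 12.5% lower. The count was again 5 at 10 days, against 19.6% higher and 17.1% lower of all genes. The 6- and 10-day counts share the control library, so they are not 2 independent results. The median log2(FPKM + 1) difference of the 6 genes was 1.55 at 0 days, 1.99 at 6 days and 2.61 at 10 days, while that of all tested genes was -0.04, -0.07 and -0.04. All 6 were lowest in the control, as were 33.6% of tested genes, and 5 were highest at 10 days, as were 29.6%. Igf2r, Airn and Dio3 stood higher in each library than in the one before, a pattern found in 12.9% of tested genes.

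**Figure D2:**
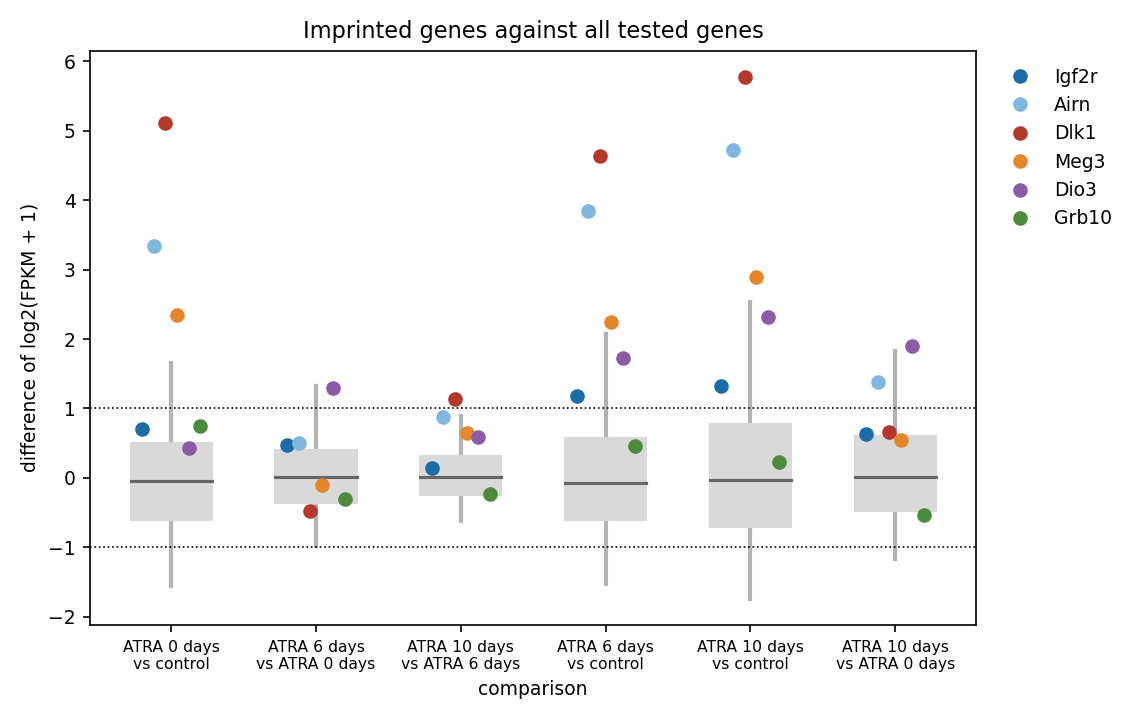
Difference of log2(FPKM + 1) of each of the 6 imprinted genes (points) in 6 comparisons, with all 5885 tested genes in grey: the bar spans the 25th to 75th percentile, the thin line the 5th to 95th, and the mark is the median. Dotted lines stand at 2-fold. Dlk1 is the highest point in the comparisons with the control, at 5.11, 4.64 and 5.77; with a pseudocount of 0.1 Airn is higher than Dlk1 at 6 days against the control.

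The genes around the 4 domains did not share one direction. Within 500 kb of the 9 genes the table held 56 other genes apart from small RNAs, of which 34 were tested. At 10 days, 8 of the 34 were 2-fold or more higher than in the control and 7 lower, with a median difference of -0.02, where 19.6% of all tested genes were higher and 17.1% lower. The counts of the neighbours are near those shares. Over all 4 libraries, 20 of the 34 had a 2-fold range, as did 51.8% of all tested genes.

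Around Igf2r and Airn, 8 of 11 tested neighbours had such a range. On the Igf2r side, Agpat4 (a lysophospholipid acyltransferase), Plg (plasminogen) and the uncharacterised 4732491K20Rik were higher at 10 days than in the control, by 2.21, 2.84 and 1.27. On the Airn side, Sod2 (mitochondrial superoxide dismutase), Pnldc1 (an exonuclease that trims germ line small RNAs) and Wtap (part of the RNA methylation complex) were lower, by -2.14, -1.67 and -1.30. Mrpl18 and Acat2 had a 2-fold range but differed by -0.63 and -0.68. Mas1, which Airn crosses, was at 0.00 to 0.12 FPKM.

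In the Dlk1 to Dio3 domain, 3 of 9 tested neighbours had a 2-fold range. Dio3os was 2.48 higher at 10 days than in the control. Hsp90aa1, a heat shock chaperone, was lower by -2.21 and B930059L03Rik differed by -0.36. Begain, an imprinted gene upstream of Dlk1, was at 1.12 FPKM at 10 days against 0.901 FPKM in the control, a difference of 0.16.

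Around Grb10, Cobl, an actin nucleator, was lower at 10 days by -3.76 and Fignl1, an ATPase of DNA repair, by -1.13. Ddc, which encodes aromatic amino acid decarboxylase and is imprinted in the mouse heart, differed by 0.46 and had a 2-fold range. Around Plagl1, 6 of 10 tested neighbours had a 2-fold range. Hymai (3.82), Stx11, a syntaxin (2.22), Fuca2, a fucosidase (1.16), and Phactr2 (1.12) were higher at 10 days, Ltv1, a ribosome biogenesis factor, was lower (-1.05), and Sf3b5, a splicing factor subunit, differed by 0.40.

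**Figure D3:**
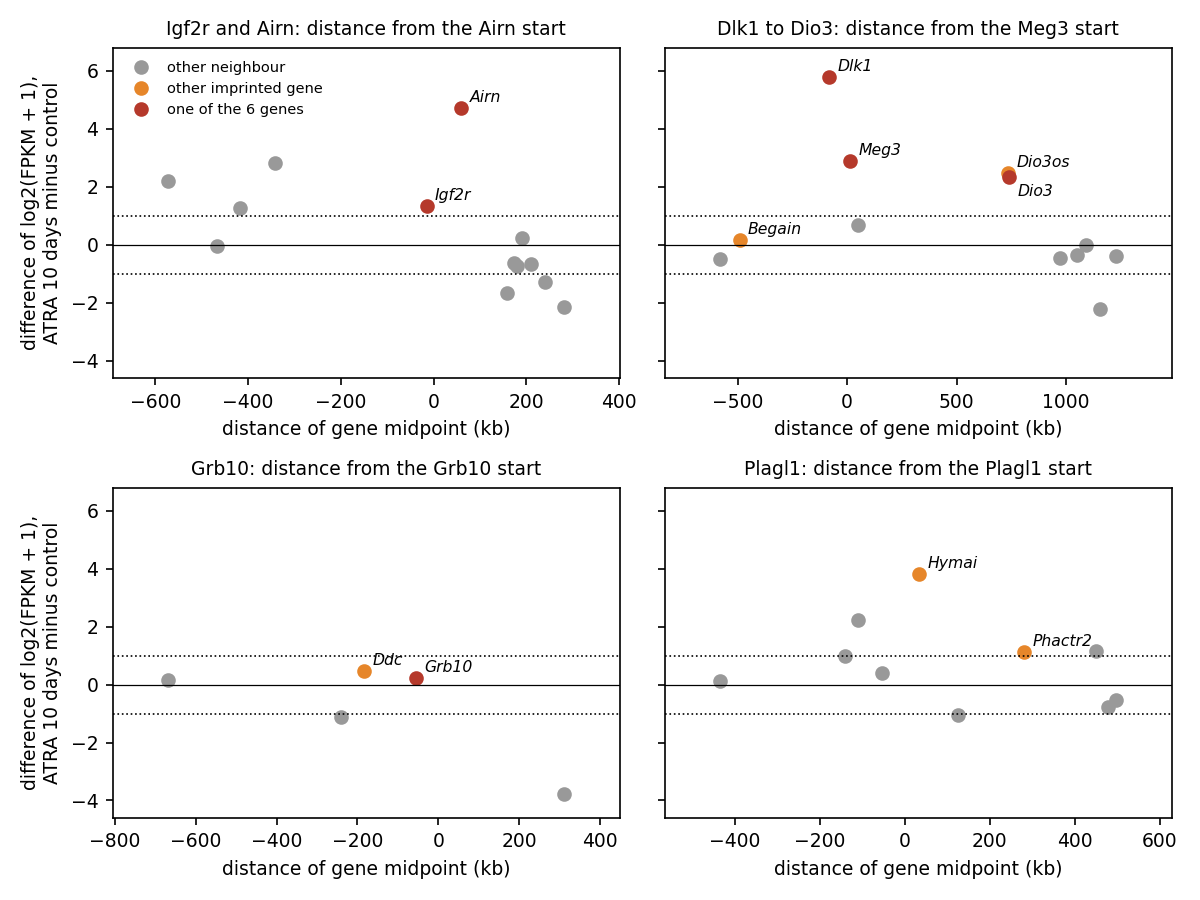
Difference of log2(FPKM + 1), ATRA 10 days minus control, of tested genes within 500 kb of the 9 imprinted genes, by the distance of each gene's midpoint (kb, rising along the chromosome) from a start site in its domain. Dotted lines stand at 2-fold. Airn (4.72), Dlk1 (5.77) and Hymai (3.82) are the highest points of their panels, while genes beside them lie on both sides of 0.

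The counts of gene lists that follow stand beside the shares of all tested genes, which were 12.2% higher and 12.8% lower at 0 days against the control, and 19.6% and 17.1% at 10 days. A list of other imprinted genes of the mouse, not including the 9, had 24 of 53 entries in the table and 17 tested. At 0 days 3 of the 17 were higher than in the control and 1 lower, counts near the shares of all genes. Their median difference was 0.29, where that of all tested genes was -0.04. At 6 against 0 days 4 were higher and none lower (median -0.19), where 8.22% of all genes were higher and 4.88% lower. At 10 against 6 days 1 was higher (median -0.01), where 3.7% of all genes were higher and 0.85% lower. Against the control at 10 days 5 were higher (Dcn, Hymai, Smoc1, Dio3os and Phactr2) and 1 lower (Zdbf2), with a median of 0.30. Of the 17, 9 were lowest in the control and 4 highest at 10 days, as were 33.6% and 29.6% of all tested genes.

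Besides Hymai, the largest steps were those of Dcn, Phactr2 and Zdbf2. Dcn, a matrix proteoglycan gene imprinted in the placenta, was listed at 0 in the control and stood at 0.125 FPKM at 0 days, 4.83 FPKM at 6 days and 13.9 FPKM at 10 days. It is also among the mesenchyme markers above, whose sum was highest in the same library. Phactr2, a phosphatase and actin regulator, was at 0.591, 3.05, 2.35 and 2.47 FPKM in the same order. Zdbf2 went the other way, at 23.4 FPKM in the control, 8.79 FPKM at 0 days, 4.54 FPKM at 6 days and 2.05 FPKM at 10 days. It is a paternally expressed zinc finger gene, and its level fell short of the library before at every step.

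Several factors that keep or erase imprints were lower than in the control. Of 30 listed factors 14 were tested, and Dnmt1, Trim28 and Dppa3 are among those without a row. Of the 14, 4 were lower at 0 days and 1, the methyltransferase gene Dnmt3a, higher, with a median difference of -0.56. Among all genes 12.8% were lower and 12.2% higher. None was called at 6 against 0 days or at 10 against 6 days, but at 10 against 0 days Dnmt3a (-1.38), Suz12 (-1.02) and Tet1 (-1.01) were lower, where 7.6% of all genes were lower. Against the control at 10 days 6 were lower and none higher (median -0.65), where 17.1% of all genes were lower. Zfp57, the zinc finger protein that guards imprinted marks, stood at 362 FPKM in the control, 45.3 FPKM at 0 days, 45.7 FPKM at 6 days and 66.3 FPKM at 10 days. Dnmt3l, the cofactor of the enzymes that set methylation in germ cells, was lower by -3.66 at 0 days. Tet1, which oxidises methylated cytosine, was lower by -2.68 and Uhrf1, which recruits the maintenance methyltransferase, by -2.04. Zfp57 and Dnmt3l are also in the list of pluripotent cell markers. Methylation itself was not measured.

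**Figure D4:**
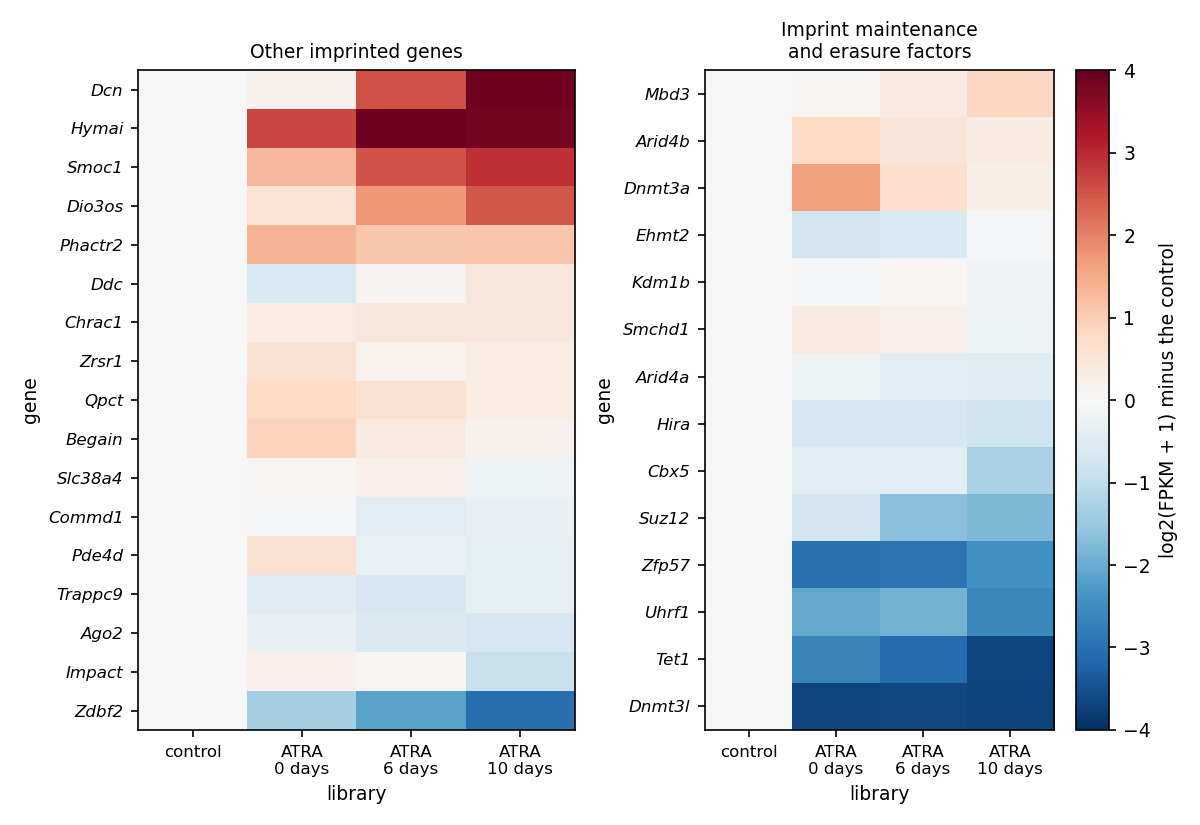
Difference of log2(FPKM + 1) from the control (colour scale) of 17 other imprinted genes and 14 factors that maintain or erase imprints, in each library, ordered by the 10-day difference. Dcn (3.90) and Hymai (3.82) head the imprinted genes, and Zdbf2 (-3.00) ends them; Tet1 (-3.68) and Dnmt3l (-3.72) are lowest among the factors.

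The pathways of Igf2r and Grb10 were described by lists as well. The direct partners Insr and Igf1r, the receptors that Grb10 binds, and Igf2 have no row here, nor has M6pr. Of 35 listed genes of insulin and IGF signalling, 19 were tested. Of the 19, 6 were higher and none lower at 0 days than in the control (median 0.54), and 9 were higher and 1 lower at 10 days (median 0.84). The shares of all genes were 12.2% higher and 12.8% lower at 0 days, and 19.6% and 17.1% at 10 days. The largest steps in that list were those of the IGF binding proteins Igfbp4 (5.10 at 0 days), Igfbp5 (5.02 at 0 days), Igfbp1 (4.17 at 6 against 0 days) and Igfbp2 (2.27 at 0 days). Of 25 listed genes of the mannose 6-phosphate route to the lysosome, in which Igf2r is a receptor, 12 were tested. Of the 12, 2 were higher at 0 days (median 0.30), and 4 were higher at 10 days against the control (median 0.18). Of all genes, 12.2% and 19.6% were higher in these comparisons. Ctsl, cathepsin L, was at 196, 322, 1294 and 1122 FPKM across control, 0, 6 and 10 days. Ctsb, cathepsin B, was at 41.2, 155, 117 and 128 FPKM, and Psap, the precursor of saposins, at 135, 279, 249 and 383 FPKM.

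Of 36 listed genes of Notch signalling, to whose ligands Dlk1 is related, 18 were tested. Of the 18, 3 were higher and 3 lower at 0 days than in the control, counts near the 12.2% and 12.8% of all genes. Their median difference was 0.59, where that of all tested genes was -0.04. At 10 days against the control 4 were higher and 2 lower, where 19.6% and 17.1% of all genes were. The median was then 0.74, against -0.04 for all tested genes. Of the 18, 11 were lowest in the control, as were 33.6% of all tested genes. Notch3, a receptor, differed by 1.70 and Dtx3, of the deltex family, by 1.65, while Mfng, which modifies Notch receptors, differed by -2.12 and Notch4 by -1.69. Of 20 listed genes of thyroid hormone handling, the pathway of Dio3, 8 were tested. Of the 8, 1 was higher and 1 lower at 0 days (median 0.22), and 1 was higher and 2 lower at 10 days against the control (median -0.17). Those counts are also near the shares of all genes, 12.2% and 12.8% at 0 days and 19.6% and 17.1% at 10 days. Ttr, a thyroid hormone carrier that also marks endoderm, differed by 3.49 at 6 against 0 days. Hr, a corepressor of the thyroid receptor, differed by -1.30 at 0 days, and Ncoa1 and Ncor1, a coactivator and a corepressor, by -1.47 and -1.09 at 6 against 0 days. Dio2, which activates the hormone that Dio3 inactivates, stayed between 0.00 and 0.04 FPKM.

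The genes with the most similar profiles were found by the root mean square distance between centred log2(FPKM + 1) values over the 4 libraries, which is a likeness of 4 points only. For Dio3 they were Clic1, its neighbour Dio3os and Fut8, at distances of 0.07, 0.07 and 0.08. Dio3os is the 1 gene found this way that shares a domain with its partner. For Meg3 they were Prickle1 (0.05), Aebp1 (0.10) and Adcy6 (0.10), and for Airn Tspan8 (0.11), Copz2 (0.20) and Gpx3 (0.23). Igfbp4 (0.34), Tff3 (0.38) and Clu (0.45) were nearest to Dlk1. Epb4.1l5, Atp8a2 and Rnf157 were nearest to Igf2r, at 0.04 each. Grb10, with neither a 2-fold range nor 5 FPKM, was not compared this way.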

How the data were processed

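RNA abundance came from 1 table of FPKM values that the authors deposited, with 1 column per library per the file headers. Trimmomatic, TopHat and Cufflinks and the build mm10 are named per the submitters' processing notes, without versions. No source used here gives the annotation, filters or use of strand. Cufflinks divides by transcript length and library total and splits reads among similar transcripts by a model. Per the labels' protocols, cDNA was primed with oligo(dT), which captures RNA without a poly(A) tail less well.

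Of 10201 rows, those of 177 repeated symbols were summed. No listed gene had more than 1 row. Differences were taken on log2(FPKM + 1) among symbols that reached 1 FPKM in some library, and called at 2-fold. Each group has 1 library, hence no test. Positions came from GENCODE M21 (mm10) or, where absent there, RefSeq on GRCm38.p6. Depth was estimated from 1377 genes with a single GENCODE transcript of at least 800 nt. Only values of FPKM times length (kb) between 0.02 and 0.05 entered, 122 to 145 per library, and this window bounds the estimate. The estimated depth gives the counting intervals (Clopper-Pearson, 95%) and no biological error.

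Listed genes are all named, as are list members with the largest steps, neighbours with a 2-fold range, and, for each of the 6 genes with a 2-fold range and 5 FPKM or more, the 3 tested genes with the most similar profiles, whatever their own level. The genes and lists were chosen with earlier results of these data known. The 2-fold call alone was tried on simulated libraries with planted changes, for genes at a mean of 5 FPKM or more. Those libraries held counting error only, and the other steps were not simulated. Alternatives were other pseudocounts, filters, scalings and a 4-fold threshold. Software was matplotlib 3.10.9, scipy 1.17.1, numpy 2.4.6 and pandas 2.3.3 under Python 3.11.15.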

Additional observations from a re-analysis of the deposited data

How the results depend on the processing

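The differences of the 6 genes kept their sign and their side of the 2-fold threshold in all 6 comparisons under pseudocounts of 0.1 and 0.5, median-ratio and upper-quartile scaling, the highest rather than summed row, and median-ratio scaling over symbols at 5 FPKM or more in every library, the last added after seeing the data. The values nearest to the threshold of 1 were Dlk1 at 10 against 6 days (1.00 under upper-quartile scaling) and, at 0 days against the control, Grb10 (0.98) and Dio3 (0.96) with a pseudocount of 0.1. With that pseudocount Airn differed by 6.15 at 0 days and 6.69 at 6 days against the control, at 6 days above that of Dlk1 (6.47), and the Dio3 step from 0 to 6 days was 1.91. At 0 days against the control, upper-quartile and the added scaling moved the median gene by 0.23 each. The share of higher genes among those called at 0 days against the control was therefore 65.5% and 65.6%, against 48.9% as deposited. Under the added scaling the shift was 0.19 at 6 days and 0.17 at 10 days against the control. The shift differed between genes, so their order was not kept throughout. At 0 days against the control Grb10 (0.7541) stood above Igf2r (0.7034) as deposited. Under the added scaling it stood below Igf2r (0.9375 against 0.9446). Only the ratios within a library are untouched by such scaling. A 4-fold threshold left 0 of the 6 genes higher at 6 against 0 days, 0 at 10 against 6 days, 0 at 10 against 0 days and 3 at 6 days against the control.

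Over all genes, the 4-fold threshold gave 192 higher and 153 lower at 0 days against the control, 133 and 47 at 6 against 0 days, 29 and 7 at 10 against 6 days, 315 and 146 at 6 days against the control, 469 and 189 at 10 days against the control, and 248 and 62 at 10 against 0 days. A pseudocount of 0.1 gave 1111 higher genes at 0 days against the control, 473 lower at 6 against 0 days, 363 higher and 185 lower at 10 against 6 days, and 729 lower at 10 against 0 days. A pseudocount of 0.5 gave 98 lower genes at 10 against 6 days, and upper-quartile scaling 76. Upper-quartile and the added scaling gave 497 and 494 lower genes at 0 days against the control. No paired analysis was possible because each group has 1 library. Depth limits Airn in the control most, at about 1 fragment by the estimated depth.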
